A study of Mus musculus with 6 samples.

Results

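The endoplasmic reticulum (ER) chaperones, the unfolded protein response (UPR) that controls them, and the heat shock proteins of the cytosol and mitochondria were followed in the aortas of 2 groups of mice. Of 38 genes chosen by name, 37 had a probe set of their own on the array, out of 19752 genes that did, and Hspa1b, whose sequence is nearly that of Hspa1a, had none. Each gene was represented by its probe set with the highest mean. The ApoE-KO group lacked Apoe (apoe-/-), which encodes a lipoprotein ligand and whose loss makes mice prone to atherosclerosis. The DKO group lacked Apoe and Adora1 (apoe-/- adora1-/-), so the loss of Apoe was shared, and the groups differed by Adora1, the adenosine A1 receptor gene. All mice were C57BL/6 and 20 weeks old, kept under normal housing, with 3 whole-transcript arrays per group, numbered 1 to 3. The design text of the series calls the comparison group Adora1 knockouts, whereas every sample label of that group gives Apoe, and the sample labels were used. No wild-type or Adora1-only aorta was among the 6, so both groups carry the background of an Apoe-deficient artery.

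Secreted and membrane proteins fold in the ER with the help of chaperones and of enzymes that form disulfide bonds. When unfolded protein builds up, the sensors PERK, IRE1 and ATF6 raise chaperone synthesis through XBP1 and cleaved ATF6, slow translation, induce amino acid and stress genes through ATF4, and send misfolded proteins to ER-associated degradation. The cytosol has a separate system, in which heat shock factor 1 induces Hsp70, Hsp40 and small heat shock proteins. In atherosclerotic arteries ER stress is known in macrophages and endothelium, and matrix-producing smooth muscle cells and fibroblasts carry a large folding load.

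Some promoters of these genes hold sites through which those pathways are known to act, and the sites are shown so that the genes with and without them can be set beside their values. The RefSeq promoter windows of build GRCm38.p6, from 250 bases before to 50 after the annotated start, were searched on both strands for exact letters, and 32 of the 37 genes had a window (Manf, Hyou1, Atf6, Hspa8 and Hsp90aa1 did not). The ER stress response element (ERSE), a CCAAT box and a CCACG box with exactly 9 bases of any kind between them, occurred in 8 of the 32, against 0.119% of all 32851 windows. The CCAAT box by itself is common, at 37.4% of windows. The 9 ERSE copies follow, read on the strand of the element, with both boxes in capitals and the spacer in lower case.
Hspa5: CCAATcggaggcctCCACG
Hsp90b1, upstream copy: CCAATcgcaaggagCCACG
Hsp90b1, downstream copy: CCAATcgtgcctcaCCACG
Calr: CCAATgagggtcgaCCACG
Creld2: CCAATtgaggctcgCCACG
Pdia6: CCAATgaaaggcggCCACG
Canx: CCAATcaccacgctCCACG
Dnajc3: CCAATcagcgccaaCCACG
Syvn1: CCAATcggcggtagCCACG
Of these 8 genes, 7 encode folding factors and Syvn1 encodes a ubiquitin ligase of ER-associated degradation.

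Whole windows are given for the genes on which the comparison turns, with each ERSE in capitals, in the direction of transcription. Hspa5 (chr2:34771840-34772139, plus strand) carries 1 exact copy just upstream of the start, and Hsp90b1 (chr10:86705395-86705694, minus strand) carries a copy in each orientation. Near matches to the element were not searched and are not marked in any window. Creld2 (chr15:88819396-88819695, plus strand) has the element reversed, and Pdia6 (chr12:17266339-17266638, plus strand) has it forward. Canx (chr11:50325624-50325923, minus strand) is shown because it holds the element although its levels hardly differed between the groups. Sdf2l1 (chr16:17132334-17132633, minus strand) is shown because it had the largest difference of the 37 while these exact letters are not in its window.
Hspa5: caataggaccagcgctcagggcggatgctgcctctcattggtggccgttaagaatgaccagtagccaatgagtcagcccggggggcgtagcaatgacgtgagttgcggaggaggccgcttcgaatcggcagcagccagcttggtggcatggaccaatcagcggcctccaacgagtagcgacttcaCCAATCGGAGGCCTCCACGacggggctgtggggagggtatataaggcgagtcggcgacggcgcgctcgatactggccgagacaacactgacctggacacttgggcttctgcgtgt
Hsp90b1: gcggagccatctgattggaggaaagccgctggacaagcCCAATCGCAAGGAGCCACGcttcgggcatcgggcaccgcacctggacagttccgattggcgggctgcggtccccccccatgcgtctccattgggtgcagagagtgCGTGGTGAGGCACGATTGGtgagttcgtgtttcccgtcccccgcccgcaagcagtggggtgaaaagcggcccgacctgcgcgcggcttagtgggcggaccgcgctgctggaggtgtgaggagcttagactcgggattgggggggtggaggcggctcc
Creld2: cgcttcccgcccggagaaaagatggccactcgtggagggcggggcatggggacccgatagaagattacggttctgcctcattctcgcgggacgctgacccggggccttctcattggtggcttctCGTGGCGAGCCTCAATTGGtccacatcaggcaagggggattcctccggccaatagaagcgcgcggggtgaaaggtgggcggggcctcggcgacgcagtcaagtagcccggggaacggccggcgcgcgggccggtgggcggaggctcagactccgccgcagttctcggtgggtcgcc
Pdia6: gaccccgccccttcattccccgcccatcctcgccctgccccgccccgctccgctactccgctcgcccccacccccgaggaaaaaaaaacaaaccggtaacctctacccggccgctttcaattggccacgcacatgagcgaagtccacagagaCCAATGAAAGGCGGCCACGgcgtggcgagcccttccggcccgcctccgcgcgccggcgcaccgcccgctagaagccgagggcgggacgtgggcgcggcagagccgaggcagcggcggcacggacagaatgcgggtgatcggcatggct
Canx: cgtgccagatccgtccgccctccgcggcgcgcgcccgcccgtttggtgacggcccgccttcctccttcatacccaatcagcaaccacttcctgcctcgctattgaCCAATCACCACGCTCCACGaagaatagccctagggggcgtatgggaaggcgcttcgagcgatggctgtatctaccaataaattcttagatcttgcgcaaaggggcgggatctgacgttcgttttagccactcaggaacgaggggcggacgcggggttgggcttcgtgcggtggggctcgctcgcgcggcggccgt
Sdf2l1: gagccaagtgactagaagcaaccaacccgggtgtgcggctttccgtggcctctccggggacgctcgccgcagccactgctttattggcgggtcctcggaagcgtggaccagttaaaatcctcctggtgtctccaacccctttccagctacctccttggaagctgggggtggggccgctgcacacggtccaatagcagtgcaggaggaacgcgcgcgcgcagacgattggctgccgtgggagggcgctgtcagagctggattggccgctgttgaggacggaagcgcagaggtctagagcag

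Other elements, searched only in the exact letters given, were rarer among the 32, and other forms of them would be missed. The shorter ERSE-II (ATTGG, 1 base of any kind, CCACG) was found in Herpud1 and Dnajb11, against 0.0365% of windows, and the core of the UPR element (TGACGTGG) in 0 of 32, against 0.676%. The C/EBP-ATF response element (CARE, TGATGCAA), through which ATF4 acts, was found in Chac1 and Herpud1, against 0.895% of windows. The heat shock element (GAA, TTC and GAA, with 2 bases of any kind between neighbours) was found in Hsph1, Hspd1 and Hspe1, against 0.603%. Hspd1 and Hspe1 lie head to head and share their matches, 2 overlapping copies at chr1:55088059-55088076 between the start sites, in capitals in the window of Hspe1 (chr1:55087898-55088197, plus strand).
Hspe1: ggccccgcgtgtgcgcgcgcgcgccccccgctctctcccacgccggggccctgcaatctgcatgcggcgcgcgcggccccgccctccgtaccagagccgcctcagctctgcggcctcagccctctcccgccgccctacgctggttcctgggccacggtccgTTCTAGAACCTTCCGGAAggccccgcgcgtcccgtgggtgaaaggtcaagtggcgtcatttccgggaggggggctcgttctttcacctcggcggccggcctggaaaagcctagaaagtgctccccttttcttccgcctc

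**Figure D1:**
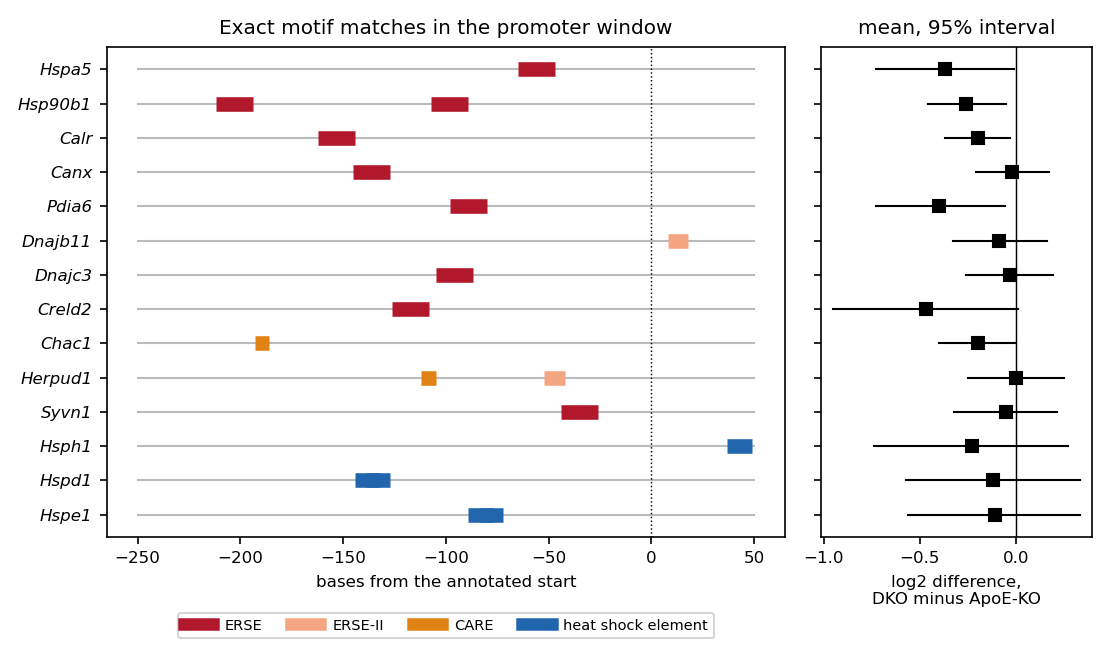
Left, position of each exact motif match in bases from the annotated start for the 14 genes with a match, in a window from -250 to 50; right, log2 difference DKO minus ApoE-KO with its 95% interval from limma. The red ERSE copies lie upstream of the start in all 8 genes that hold one, and the difference of those genes runs from -0.47 for Creld2 to -0.02 for Canx.

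The values are log2 intensities as deposited, and differences are therefore log2 fold changes. Over the 6 arrays the medians ran from 8.01 to 8.02, and correlations between arrays from 0.983 to 0.995. All 8 smooth muscle markers, among them Myh11 and Acta2, had means at or above the 86.0 percentile of all probe sets. Lung epithelium markers were high on both arrays numbered 3, where Scgb1a1 reached 13.70 (ApoE-KO 3) and 12.93 (DKO 3) against at most 5.97 elsewhere, and the role groups are therefore also given by same-numbered arrays. Same-numbered arrays of the 2 groups deviated together from their group means (r = 0.60, 0.498 and 0.636 over all probe sets, genes not being independent replicates), and the numbers were taken as pairs. In whole aorta, fewer cells of a type and less RNA per cell cannot be told apart.

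None of the 37 genes passed in limma without pairing at an adjusted p under 0.05 (smallest 0.861), nor with the replicate number as a block (smallest 0.071, Sdf2l1). Over all 25254 probe sets 0.0% passed without pairing and 0.174% with it. At an unadjusted p under 0.05, 8 of the 37 were lower in DKO and 0 higher, against 2.68% and 2.94% of all probe sets, and with the block 12 were lower and 0 higher, against 6.1% and 10.1%. In all, 26 of 37 had a difference below 0, against 50.7% of probe sets, with a median of -0.10 against -0.00. The groups did not overlap in 8 of 37, all lower in DKO (6.47% of probe sets), and 0 were higher without overlap (5.55%). Those 8 were Sdf2l1, Hyou1, Pdia6, Hsp90b1, Manf, Calr, Chac1 and Trib3. All 3 pairs were lower in DKO in 15 of 37 (19.1% of probe sets) and higher in 1 (21.2%), Sel1l. These genes were proposed with earlier results of the same arrays known, so the counts are descriptions.

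**Figure D2:**
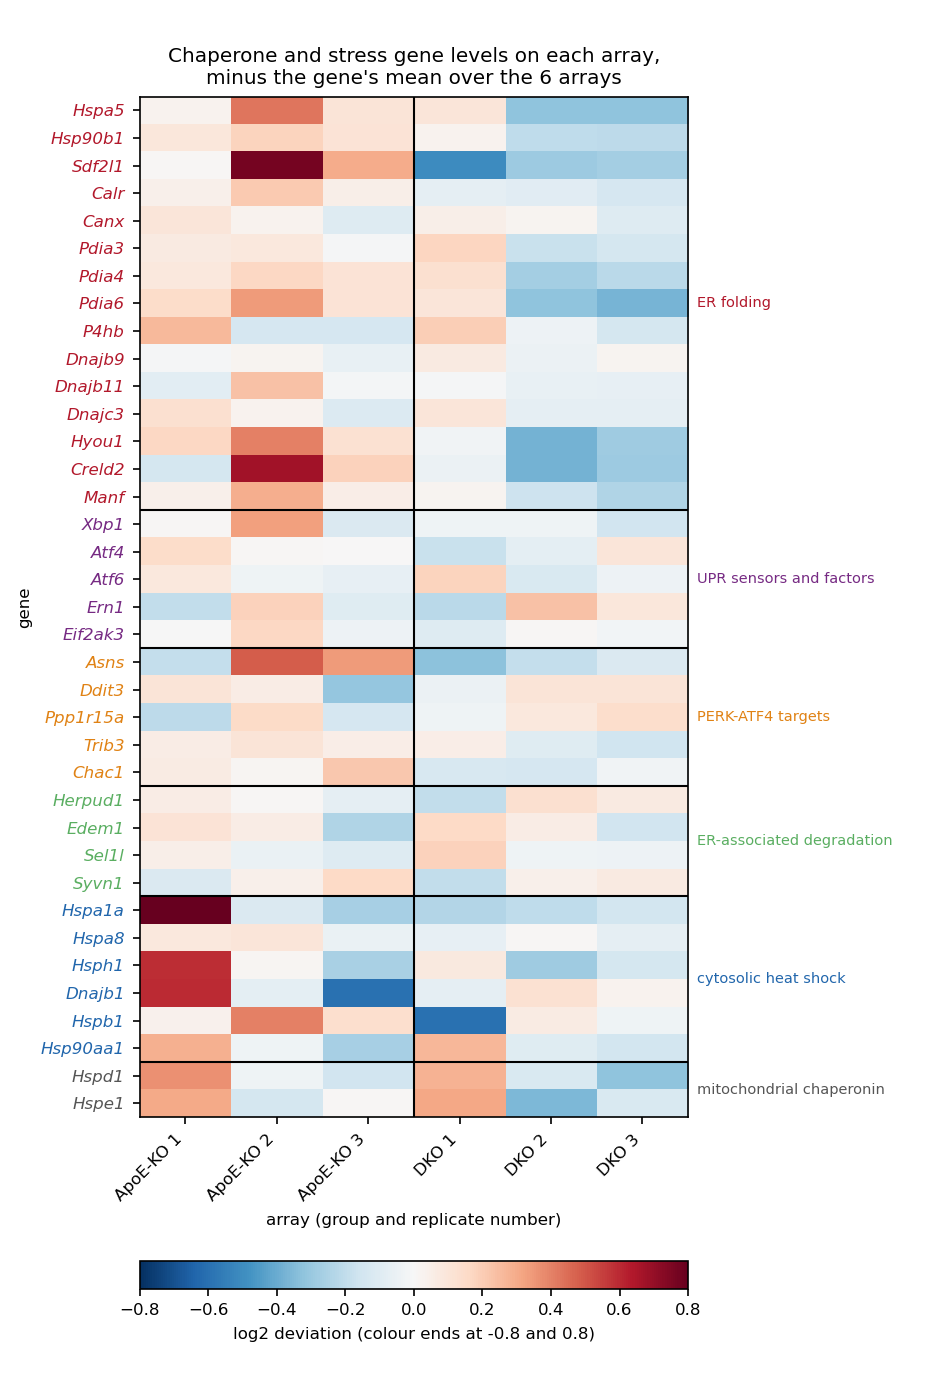
Log2 level of each of the 37 genes on each of the 6 arrays minus the gene's mean over the 6, by role; red is above and blue below that mean, and the colour ends at -0.8 and 0.8. ApoE-KO 2 is the reddest column among the ER folding genes and DKO 2 or DKO 3 the lowest array for most of them, except Sdf2l1 (DKO 1), Dnajb11 (ApoE-KO 1), Dnajb9 and Dnajc3 (both ApoE-KO 3), and ApoE-KO 1 is the reddest in Hspa1a, Hsph1 and Dnajb1.

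Among the 15 ER folding genes, 13 had lower mean levels in DKO, against 50.7% of all probe sets, with a median difference of -0.24. No gene of the group passed the adjusted test. In limma without pairing 7 had an unadjusted p under 0.05, all lower, against 2.68% of all probe sets. In 6 the groups did not overlap, all lower, against 6.47%. Sdf2l1, an ER-resident partner of the DnaJ co-chaperones, had the largest difference. It read 9.28, 10.04 and 9.57 on ApoE-KO arrays 1 to 3 and 8.77, 8.98 and 9.00 on DKO arrays 1 to 3. Every DKO array was below every ApoE-KO array, with ApoE-KO 2 well above the rest. The difference was -0.72 (95% interval -1.16 to -0.27), a level 60.9% of that in ApoE-KO (limma, adjusted p = 0.861; with the block, adjusted p = 0.071).

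Hyou1, the large Hsp70-like exchange factor of the ER, stood at 10.48, 10.72 and 10.44 on the ApoE-KO arrays and at 10.29, 9.94 and 10.03 on the DKO arrays, again without overlap. Its difference was -0.46 (95% interval -0.75 to -0.16; limma, adjusted p = 0.861). Pdia6, a protein disulfide isomerase that also dampens the sensors IRE1 and PERK, read 10.06, 10.25 and 10.02 against 10.01, 9.59 and 9.54. The groups nearly touched for Pdia6, since DKO 1 was level with the lower ApoE-KO arrays. Its difference was -0.40 (95% interval -0.73 to -0.06; limma, adjusted p = 0.861).

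Hspa5, which encodes BiP, the central Hsp70 of the ER and the brake on all 3 sensors, stood at 11.98, 12.38 and 12.06 on the ApoE-KO arrays and at 12.05, 11.63 and 11.63 on the DKO arrays. Here the groups overlapped, because DKO 1 was as high as ApoE-KO 3 while the other DKO arrays lay below all ApoE-KO arrays. The difference was -0.37 (95% interval -0.73 to -0.01; limma, adjusted p = 0.862), and the pairs stood at 0.07, -0.75 and -0.43. Creld2, a secreted ER stress protein, showed the same order, at 9.83, 10.64 and 10.15 against 9.92, 9.59 and 9.68, with pairs at 0.09, -1.05 and -0.47. Its difference was -0.47 (95% interval -0.95 to 0.01; limma, adjusted p = 0.862), and -0.257 without ApoE-KO 2.

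Hsp90b1, the ER Hsp90 GRP94, read 11.97, 12.06 and 11.99 in ApoE-KO, a spread of 0.04 (SD, n = 3), and 11.91, 11.68 and 11.67 in DKO. Its difference of -0.26 (95% interval -0.46 to -0.05) left no overlap. Calr, the calcium-binding lectin chaperone calreticulin, read 12.45, 12.62 and 12.46 against 12.34, 12.32 and 12.28, a difference of -0.20 (95% interval -0.37 to -0.03). Manf, a secreted factor that binds BiP, read 8.61, 8.86 and 8.62 against 8.59, 8.40 and 8.33, a difference of -0.26 (95% interval -0.51 to -0.00). In limma the adjusted p of these 3 genes ran from 0.861 to 0.862. Pdia4, another disulfide isomerase, read 11.34, 11.42 and 11.36 against 11.38, 10.98 and 11.04, so that DKO 1 again stood with the ApoE-KO arrays and DKO 2 and 3 lay below them.

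The other ER folding genes differed by no more than -0.10. Pdia3, the isomerase that works with calreticulin and calnexin, was at -0.10 (95% interval -0.35 to 0.15) and Dnajb11, a BiP co-chaperone, at -0.09 (95% interval -0.33 to 0.16). Canx, the membrane-bound lectin chaperone calnexin, stood at 12.74, 12.67 and 12.54 on the ApoE-KO arrays and at 12.69, 12.66 and 12.54 on the DKO arrays. Same-numbered Canx arrays lay within 0.06 of each other, and the difference was -0.02 (95% interval -0.21 to 0.17). P4hb, the founding disulfide isomerase, was at 0.00 (95% interval -0.32 to 0.33), Dnajc3, a BiP co-chaperone that restrains PERK, at -0.03 (95% interval -0.26 to 0.19) and Dnajb9, the co-chaperone ERdj4, at 0.03 (95% interval -0.15 to 0.22).

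**Figure D3:**
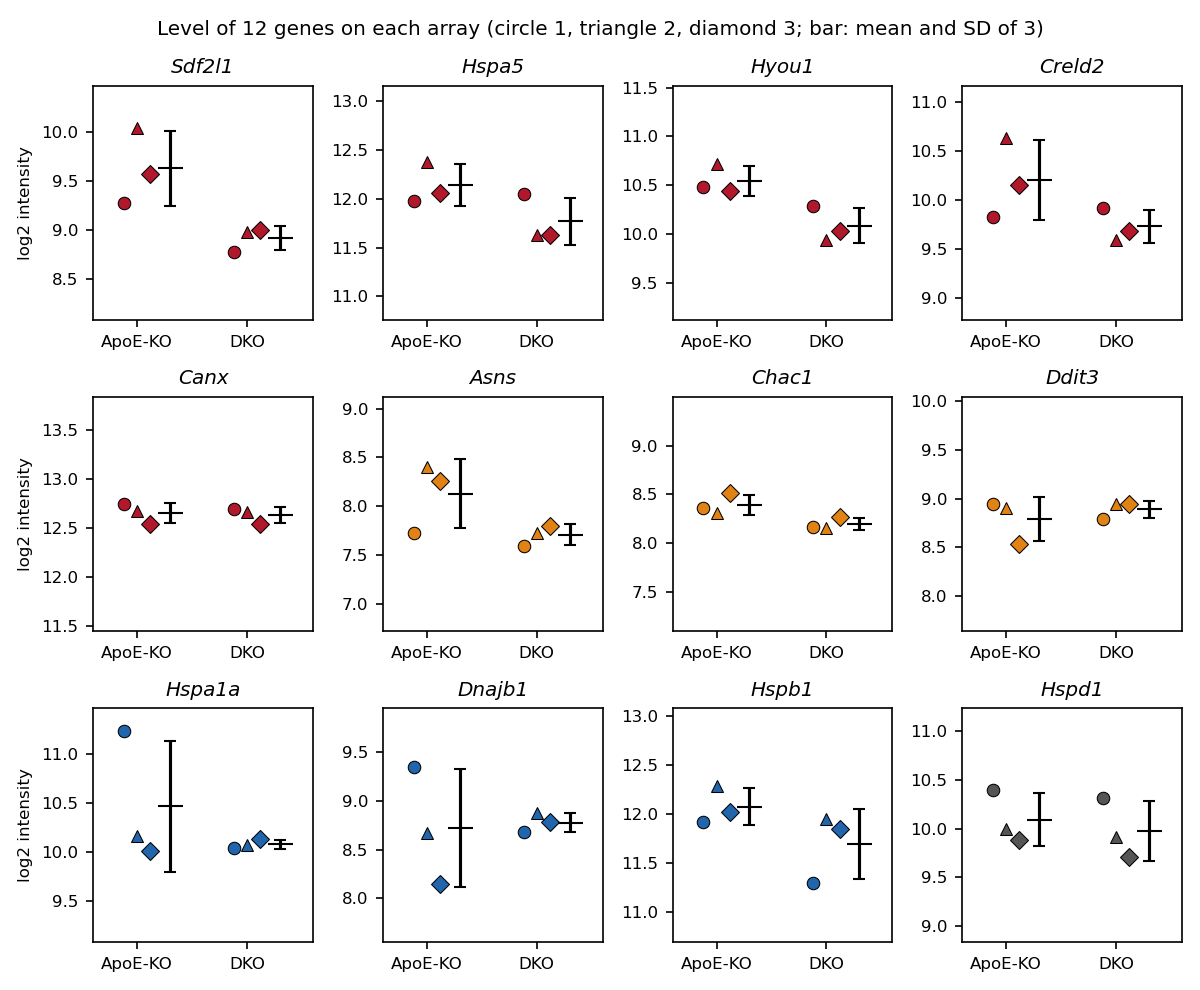
Log2 intensity of 12 genes on each array, with circles for replicate 1, triangles for replicate 2, diamonds for replicate 3 and a bar for the mean and SD of 3 arrays; every panel spans the same log2 range. The DKO points lie below all ApoE-KO points in Sdf2l1, Hyou1 and Chac1, a single ApoE-KO point stands at 11.24 for Hspa1a, and the Canx points of both groups lie between 12.54 and 12.74.

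The difference of the ER folding group depended on the arrays. Its mean over the 15 genes was -0.04, -0.43 and -0.24 in pairs 1, 2 and 3, which is -0.24 ± 0.20 (SD over 3 pairs). In pair 1, 9 of the 15 were lower in DKO, in pair 2, 14, and in pair 3, 13. ApoE-KO 2 was the highest of the 6 arrays in 10 of the 15 genes, against 18.2% of all probe sets, and DKO 1 the highest DKO array in 14 of the 15, against 42.6%. Leaving out 1 array at a time moved the group mean from -0.307 without DKO 1 to -0.173 without ApoE-KO 2, with 11 to 15 of the 15 genes lower. Without both arrays of a number it was -0.336 (pair 1 left out), -0.139 (pair 2) and -0.238 (pair 3). Without both arrays numbered 1 and with the block, 7 of the 15 passed (limma, adjusted p from 0.0178 to 0.045): Pdia6, Sdf2l1, Hspa5, Hyou1, Creld2, Pdia4 and Hsp90b1. That fit has 1 residual degree of freedom and passed 1.64% of all probe sets, 0.554% of them lower in DKO as these were. Hspa5 stood at -0.59 there, and Creld2 at -0.76. Without both arrays numbered 3 and with the block, 0 of the 37 passed (limma, smallest adjusted p = 0.1), while 0.19% of all probe sets did. Without both arrays numbered 2 no gene of the 37 passed (limma, smallest adjusted p = 0.298), and neither did any of all probe sets. The differences there were smaller by over 1.5 times for Hspa5 (-0.176), Creld2 (-0.186), Hyou1 (-0.294), Pdia6 (-0.263), Pdia4 (-0.139) and Manf (-0.158).

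Grouped by promoter, the 7 ER folding genes with an ERSE were all lower in DKO, with a median of -0.26 and a range from -0.47 to -0.02. The 6 with a window and no exact ERSE had a median of -0.09 and a range from -0.72 to 0.03, and 4 of them were lower. The element did not sort the genes by size, since Canx, Dnajc3 and Syvn1 hold it with differences of -0.02, -0.03 and -0.05, while Sdf2l1 and Pdia4, at -0.72 and -0.24, have no exact match in the window. Neither difference between these sets was tested.

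The 5 genes of the UPR sensors and their transcription factors had a median difference of -0.08, and all 5 overlapped between the groups. Xbp1, the factor spliced by IRE1, stood at 11.04, 11.36 and 10.92 on the ApoE-KO arrays and at 11.00, 11.00 and 10.88 on the DKO arrays. ApoE-KO 2 was again the highest array and the other 5 lay close together, with a difference of -0.15 (95% interval -0.44 to 0.14; limma, adjusted p = 0.900), which was -0.020 without ApoE-KO 2. An intensity summed over the transcript does not separate spliced from unspliced Xbp1. Atf4, the translationally controlled factor downstream of PERK, read 8.87, 8.73 and 8.72 against 8.54, 8.64 and 8.82, a difference of -0.10 (95% interval -0.34 to 0.13). The sensor genes themselves were Ern1, which encodes IRE1, at 0.07 (95% interval -0.28 to 0.42), Eif2ak3, which encodes PERK, at -0.08 (95% interval -0.29 to 0.13), and Atf6 at 0.01 (95% interval -0.24 to 0.26). Their activity is set by phosphorylation, splicing and cleavage, which an array does not measure.

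Of the 5 PERK-ATF4 targets, 3 were lower and 2 higher in DKO, with a median of -0.14, and 0 passed in limma. At an unadjusted p under 0.05 in limma, 1 was lower, against 2.68% of all probe sets. Asns, the asparagine synthetase that ATF4 induces on amino acid shortage, stood at 7.73, 8.40 and 8.26 on the ApoE-KO arrays and at 7.59, 7.73 and 7.80 on the DKO arrays. ApoE-KO 1 lay among the DKO arrays, so the groups overlapped, while the other ApoE-KO arrays stood above all DKO arrays. The difference was -0.43 (95% interval -0.83 to -0.02; limma, adjusted p = 0.861), with pairs at -0.15, -0.67 and -0.46. Asns passed without both arrays numbered 1 and with the block (-0.57; limma, adjusted p = 0.0272). That fit has 1 residual degree of freedom and passed 1.64% of all probe sets. With the block and no array left out, Asns did not pass (limma, adjusted p = 0.144). With the block it also did not pass without both arrays numbered 2 (limma, adjusted p = 0.525) or both numbered 3 (limma, adjusted p = 0.284).

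Chac1, a glutathione-degrading enzyme induced by ATF4, stood at 8.36, 8.31 and 8.51 on the ApoE-KO arrays and at 8.17, 8.16 and 8.27 on the DKO arrays. It had no overlap and the most even pairs of the role group, at -0.19, -0.16 and -0.24, for a difference of -0.20 (95% interval -0.40 to 0.00; limma, adjusted p = 0.862). Trib3, a pseudokinase that restrains ATF4, read 7.80, 7.84 and 7.79 against 7.79, 7.64 and 7.58, without overlap but with DKO 1 only just below ApoE-KO 3, and its difference was -0.14 (95% interval -0.33 to 0.05). Ddit3, which encodes the death-associated factor CHOP, read 8.94, 8.90 and 8.53 against 8.79, 8.94 and 8.94. Its low array was ApoE-KO 3, and its difference was 0.10 (95% interval -0.20 to 0.40). Ppp1r15a, the phosphatase subunit GADD34 that restores translation, read 8.66, 9.02 and 8.73 against 8.83, 8.95 and 9.01, a difference of 0.13 (95% interval -0.15 to 0.40). The target group therefore held genes at both signs, and its mean of -0.11 was -0.052 without ApoE-KO 2 and -0.054 without both arrays numbered 2.

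The 4 genes of ER-associated degradation had differences from -0.05 to 0.08. Sel1l, the scaffold of the ER ubiquitin ligase, stood at 10.61, 10.51 and 10.46 on the ApoE-KO arrays and at 10.75, 10.53 and 10.52 on the DKO arrays, higher in each pair by 0.14, 0.03 and 0.07. The groups overlapped, and the difference was 0.08 (95% interval -0.15 to 0.31; limma, adjusted p = 0.935). Syvn1, the ligase HRD1, was at -0.05 (95% interval -0.32 to 0.21) and Edem1, a lectin that extracts misfolded glycoproteins, at 0.04 (95% interval -0.26 to 0.35). Herpud1, a membrane adaptor of the ligase, was at 0.00 (95% interval -0.25 to 0.25), with pairs at -0.26, 0.12 and 0.14 that did not point one way.

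**Figure D4:**
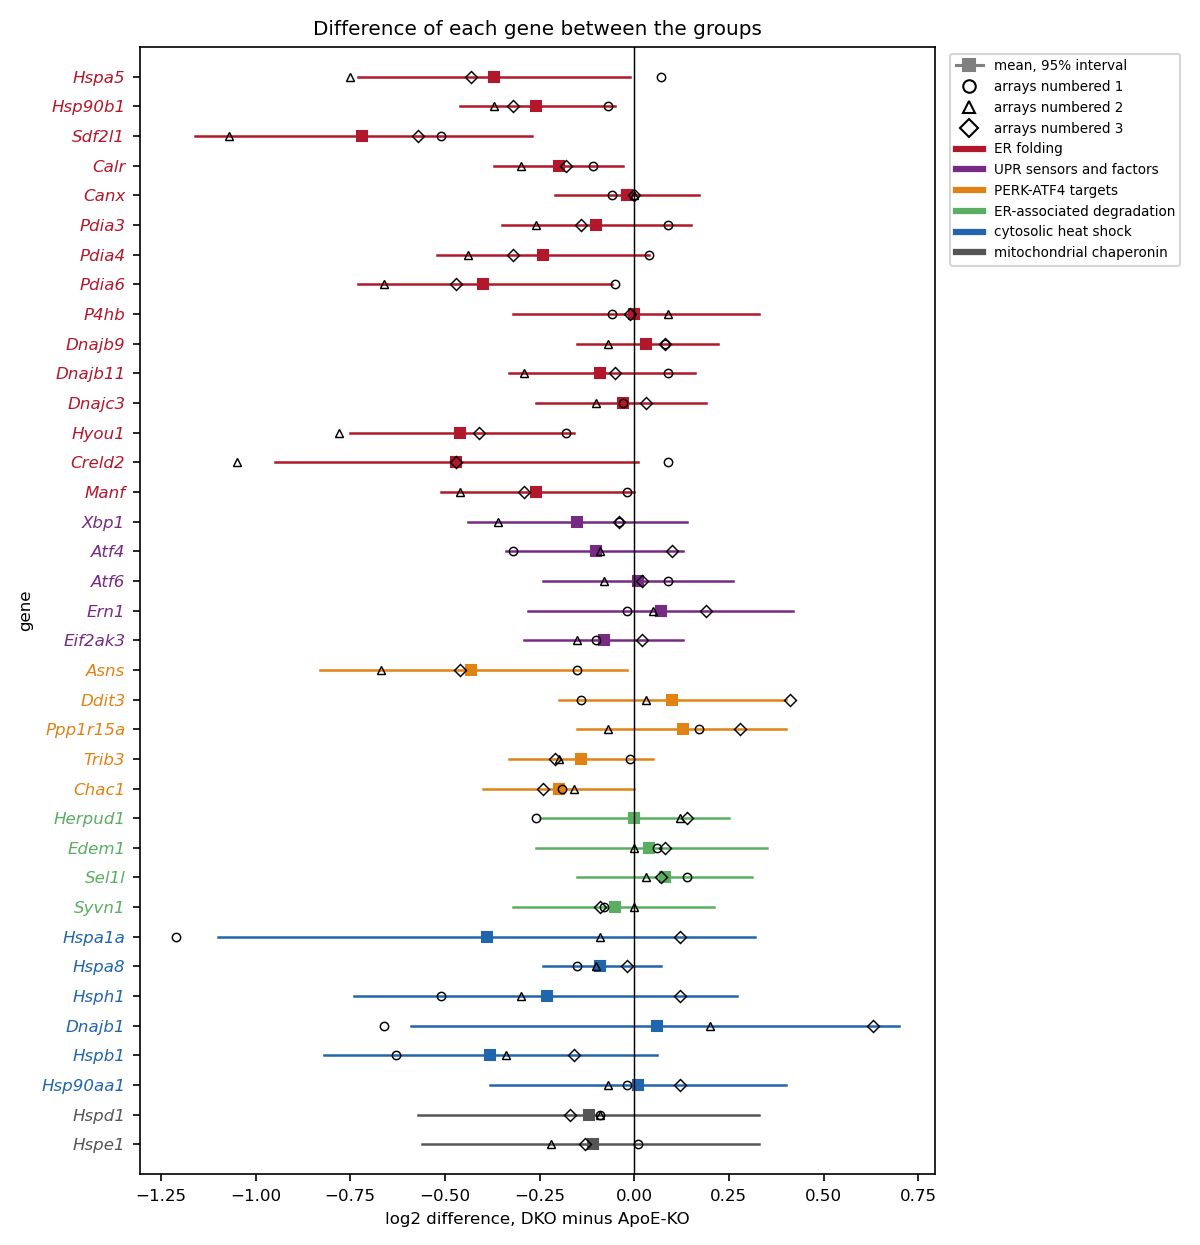
Log2 difference DKO minus ApoE-KO for each of the 37 genes, as the mean with its 95% interval from limma without pairing (square and line, coloured by role) and for same-numbered arrays (circle 1, triangle 2, diamond 3). For most ER folding genes the circle lies nearest to 0 and the triangle lowest, as for Hspa5 at 0.07, -0.75 and -0.43, whereas for Hspa1a, Dnajb1 and Hsph1 the circle is the lowest.

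The cytosolic heat shock genes followed other arrays. Their mean difference was -0.53, -0.12 and 0.13 in pairs 1, 2 and 3, which is -0.17 ± 0.34 (SD over 3 pairs), and 0 of 6 passed, with 0 at an unadjusted p under 0.05 (limma). Hspa1a, the stress-inducible Hsp70, stood at 11.24, 10.16 and 10.01 on the ApoE-KO arrays and at 10.04, 10.07 and 10.13 on the DKO arrays. A single array, ApoE-KO 1, stood apart and the other 5 lay between 10.01 and 10.16. The difference was -0.39 (95% interval -1.10 to 0.32; limma, adjusted p = 0.891), and it was -0.0052 without ApoE-KO 1. Another probe set, which names Hspa1a and Hspa1b together, gave -0.22 (limma, adjusted p = 0.947). There ApoE-KO 1 was also the highest array, but the other 5 were spread from 10.56 (ApoE-KO 3) to 11.18 (DKO 2). Hsph1, the Hsp110 exchange factor, read 10.42, 9.85 and 9.57 against 9.91, 9.55 and 9.69, and Dnajb1, the Hsp40 partner of Hsp70, read 9.35, 8.67 and 8.15 against 8.68, 8.87 and 8.78. In both, ApoE-KO 1 was the highest array, and for Dnajb1 ApoE-KO 3 was the lowest, so the ApoE-KO group held both ends of the range. Their differences were -0.23 (95% interval -0.74 to 0.27) for Hsph1 and 0.06 (95% interval -0.59 to 0.70) for Dnajb1. Without ApoE-KO 1 they were 0.0053 and 0.37, and Dnajb1 was at -0.23 without ApoE-KO 3.

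Hspb1, the small heat shock protein Hsp27 that is abundant in smooth muscle, had another pattern. It stood at 11.92, 12.29 and 12.02 on the ApoE-KO arrays and at 11.29, 11.95 and 11.85 on the DKO arrays, lower in each pair by 0.63, 0.34 and 0.16, with DKO 1 lowest. The difference was -0.38 (95% interval -0.82 to 0.06; limma, adjusted p = 0.862), and with the block its unadjusted p was 0.00385 (adjusted p = 0.13). Without DKO 1 the difference was -0.175. Hspa8, the constitutive Hsp70, was at -0.09 (95% interval -0.24 to 0.07), lower in all 3 pairs, and Hsp90aa1, the inducible cytosolic Hsp90, at 0.01 (95% interval -0.38 to 0.40). Without ApoE-KO 1 the mean of the 6 genes was -0.00041 with 3 of 6 lower, and without ApoE-KO 3 it was -0.323 with 6 of 6 lower. ApoE-KO 1 was the highest array in 4 of 6 cytosolic genes and in 3 of 15 ER folding genes, against 20.5% of all probe sets.

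The mitochondrial chaperonin pair followed the replicate number more than the genotype. Hspd1, which encodes Hsp60, stood at 10.40, 10.00 and 9.88 on the ApoE-KO arrays and at 10.31, 9.91 and 9.71 on the DKO arrays, and Hspe1, its lid Hsp10, read 10.69, 10.25 and 10.40 against 10.70, 10.03 and 10.27. Both arrays numbered 1 were the highest for each gene. The differences were -0.12 (95% interval -0.57 to 0.33) and -0.11 (95% interval -0.56 to 0.33). Another probe set naming Hspd1 gave 0.12 in place of -0.12 (limma, adjusted p = 0.962), so no direction can be given for Hspd1.

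Set side by side, the mean difference over pairs was -0.24 ± 0.20 for ER folding, -0.11 ± 0.09 for PERK-ATF4 targets and -0.17 ± 0.34 for cytosolic heat shock (SD over 3 pairs each). The lowest pair mean of cytosolic heat shock was that of pair 1 (-0.53), where ER folding was nearest to 0 (-0.04), and the lowest of ER folding was that of pair 2 (-0.43), where cytosolic heat shock stood at -0.12. In pair 3 they stood at 0.13 and -0.24. These means were not tested against each other.

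**Figure D5:**
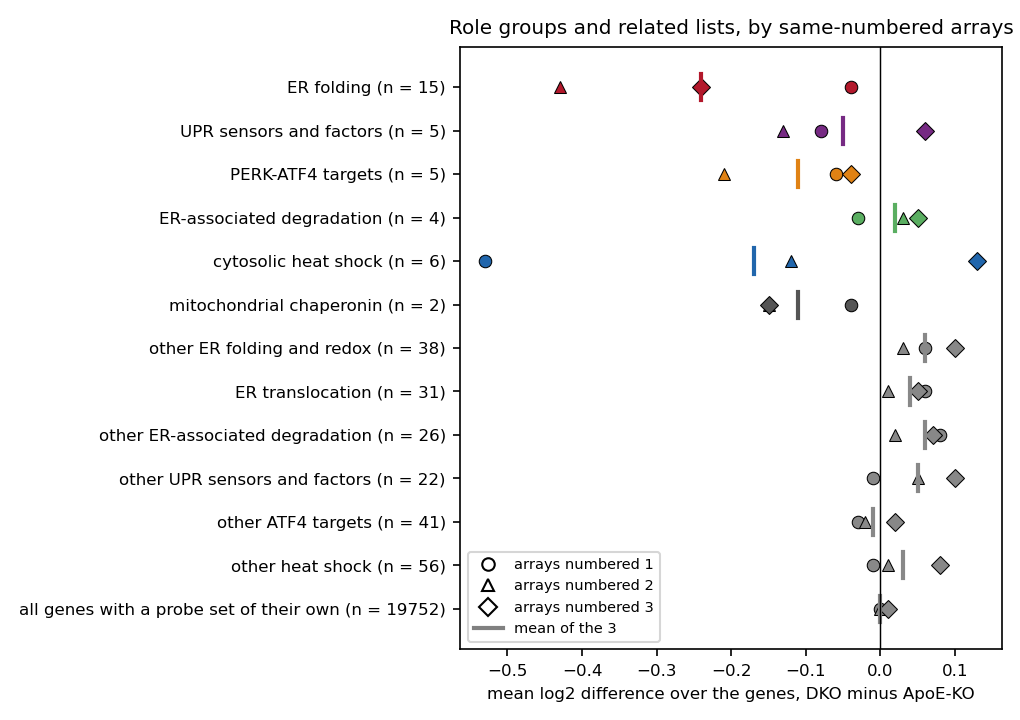
Mean log2 difference DKO minus ApoE-KO over the genes of each role group (coloured) and of 6 lists of related genes (grey), for arrays numbered 1 (circle), 2 (triangle) and 3 (diamond), with a bar at the mean. ER folding lies left of 0 at -0.04, -0.43 and -0.24, cytosolic heat shock spans from -0.53 to 0.13, and the grey lists stay between -0.03 and 0.10.

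Lists of related genes outside the 37 had medians from -0.00 to 0.08, and their difference from the ER folding genes was not tested. Of 38 other ER folding and redox genes, 27 were higher and 11 lower in DKO, with a median of 0.07, and 0 passed in either fit (limma; 0 at an unadjusted p under 0.05, and 1 lower and 9 higher with the block). Of all probe sets, 50.7% had a difference below 0. At that unadjusted threshold 2.68% of all probe sets were lower and 2.94% higher, and 6.1% and 10.1% with the block. Serpinh1, the collagen chaperone Hsp47, was at -0.24, Fkbp11, an ER prolyl isomerase, at -0.16, and Tmx3, a membrane thioredoxin, at 0.28 (limma, adjusted p = 0.862 each). Of 31 ER translocation genes, 22 were higher (median 0.04), with Srp9, of the signal recognition particle, at 0.30, Spcs1, of the signal peptidase, at 0.16, and Rpn1, of the oligosaccharyl transferase, at -0.17. Of 26 other genes of ER-associated degradation, 19 were higher (median 0.08), with Ngly1, which removes glycans, at 0.21, Ubxn8 at 0.21 and Derl3, a retrotranslocation protein, at -0.29 (pairs at -0.11, -0.45 and -0.32). These lists had 0 passing in either fit (limma, smallest adjusted p = 0.0919 with the block).

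Of 22 other UPR sensors and factors, 12 were higher (median 0.02), and Tmbim6, an ER membrane protein that restrains IRE1, read 11.69, 11.63 and 11.67 in ApoE-KO against 11.82, 11.90 and 11.89 in DKO. Its difference was 0.21 (95% interval 0.05 to 0.37; limma, adjusted p = 0.861). Nck1 was at 0.24 and Eif2ak2, which encodes the kinase PKR, at 0.19. Of 41 other ATF4 targets, 21 were lower and 20 higher (median -0.00). Slc1a5, a glutamine transporter, read 10.64, 11.09 and 11.19 against 10.56, 10.61 and 10.66, with ApoE-KO 1 among the DKO arrays as for Asns, and its difference was -0.36 (95% interval -0.71 to -0.02). Cth, of cysteine synthesis, was at -0.26 and Vldlr, the VLDL receptor, at 0.43. Of 56 other heat shock genes, 33 were higher (median 0.02), with Hspb6, a small heat shock protein of smooth muscle, at 0.35, Hspa2 at 0.33 and Fkbp5, a glucocorticoid-induced Hsp90 co-chaperone, at -0.45. In limma 0 genes of these 3 lists passed in either fit. Without pairing 3 were lower and 5 higher at an unadjusted p under 0.05, against 2.68% and 2.94% of all probe sets.

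Markers of other cells moved with some of these values, while other markers differed little between the groups. Smooth muscle had 6 of 8 markers higher in DKO (median 0.06), endothelium 6 of 8 (median 0.09) and fibroblasts 4 of 8 (median 0.01). Brown fat had 4 of 6 lower (median -0.25). Plasma cells have a very large ER, and of their 9 measured markers (of 11) 8 were lower in DKO with a median of -0.08. By pair, ER folding had means of -0.04, -0.43 and -0.24, and the plasma cell markers had means of -0.11, -0.13 and -0.14. The log2 of their summed intensity ran from 10.86 to 10.90 in ApoE-KO and from 10.75 to 10.84 in DKO. Of the 9, 8 lay below the median probe set, and the defining gene Jchain read 5.19 to 5.92 over the 6 arrays. Jchain differed by -0.04, and the largest difference of the list was that of Irf4, at -0.37 (limma, adjusted p = 0.596). Irf4 read 7.27, 7.41 and 7.38 on the ApoE-KO arrays and 6.91, 7.04 and 6.99 on the DKO arrays, without overlap. Of 8 measured white fat markers (of 9) 7 were lower, with summed levels from 13.72 to 14.39 against 12.92 to 13.83. ApoE-KO 2 was the highest array in 6 of these 8, against 18.2% of all probe sets. By pair, the white fat markers had means of -0.63, -0.45 and -0.58. With the block 3 fat markers passed, all lower, against 0.174% of all probe sets. Among them were Retn, which encodes resistin, at -1.53 and Car3 at -0.90 (limma, adjusted p = 0.0226 each). Without both arrays numbered 2 no probe set passed with the block. All 8 mesothelium markers were higher in DKO, 6 of them without overlap (5.55% of all probe sets), with summed levels from 10.59 to 10.98 against 11.18 to 11.68. All 8 mast cell markers (median -0.16) and all 7 measured sympathetic neuron markers (median -0.54) were lower. The neuron markers were all highest on ApoE-KO 3 (summed level 11.22 against 9.72 to 10.01 elsewhere), with pair means of -0.21, -0.21 and -1.17. Below the median probe set lay 5 of 8 mesothelium, 7 of 8 mast cell and 6 of 7 neuron markers. Of 14 immediate early genes 9 were higher in DKO, with summed levels from 13.93 to 14.37 against 14.34 to 14.48. Atf3, a stress factor among them, stood at 10.08, 9.47 and 8.82 on the ApoE-KO arrays and at 9.91, 10.04 and 9.78 on the DKO arrays, and like Dnajb1 it was lowest on ApoE-KO 3. Macrophage markers had pair means of -0.69, 0.25 and 0.19, with DKO 1 lowest (summed level 12.76 against 13.51 to 14.03 elsewhere). The summed lung markers ran from 10.47 to 14.73 in ApoE-KO and from 10.30 to 14.04 in DKO, high on the arrays numbered 3. The part of these cells and genes in the results was not tested.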

How the data were processed

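The authors deposited log2 intensities of 25254 probe sets in 1 table, made with RMA and Partek for build mm9 per the submitters' processing notes, which give no versions. The series text names a batch factor, but no label gives the batch of an array. Any batch correction of the deposited values was not given in the sources used here. Probe sets were named with the platform annotation: 21496 name 1 gene, 1565 several and 2193 none. Differences are DKO minus ApoE-KO from limma 3.58.1 in R 4.3.3 (lmFit, eBayes with an intensity trend) over all probe sets, two-sided, Benjamini-Hochberg adjusted at 0.05, with no filter on low values and 95% intervals. The fit was tested on simulated data. The first fit has no block, because no label names a batch. Same-numbered arrays correlated at 0.60, 0.498 and 0.636 in their deviations from the group means, so the replicate number was also used as a block, with the pairing taken from the data and not from a label. The number of arrays limits the precision: with 3 per group, exact permutation gives no p below 0.1.

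Genes, role groups, lists and naming rule were chosen with earlier results of these data known. All 37 genes are named. Values on every array are given for up to 4 genes per role group by smallest unadjusted p and for genes that a single array sets apart; for some further genes they were added after their values were seen. Up to 3 genes per related list are named by smallest unadjusted p. Promoter windows and gene names come from RefSeq tables (GRCm38.p6), and their coordinates are those of that build only. Adora1 is not analysed here. Alternatives were the block, each array or pair left out, quantile normalization, median centring, a filter at the 40th percentile, eBayes without trend, an unmoderated model with the block, and the mean of all probe sets of a gene.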

Additional observations from a re-analysis of the deposited data

How the results depend on the processing

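With the replicate block 44 probe sets passed in place of 0, 415 did so without both arrays numbered 1 and 48 without both numbered 3, but 0 did so without both numbered 2 (limma, smallest adjusted p = 0.182) and 0 with the block and no moderation (0.0509). Leaving out 1 array without pairing gave 0 to 8. The block turned the direction of 0 of the 37 genes and passed 0 of them, as did median centring, the filter at the 40th percentile (all 37 genes lie above it), eBayes without trend and the unmoderated model. In all of these except median centring the directions were fixed in advance. In this balanced design the block, filter, trend and moderation leave each difference as it was. Median centring moved the differences little, as for Hspa5 from -0.368 to -0.366. For 18 genes some alternative turned the sign, each with a 95% interval across 0 without pairing. After quantile normalization this held for P4hb (-0.049), Dnajb9 (-0.017), Atf6 (-0.033), Herpud1 (-0.049) and Hsp90aa1 (-0.035), and with the mean of all its probe sets for Hspd1 (0.0029). With the block it held without both arrays numbered 1 for Atf4 (0.0062), Atf6 (-0.031) and Hspa1a (0.014), without both numbered 2 for P4hb (-0.036), Dnajb11 (0.015), Dnajc3 (0.0014), Herpud1 (-0.057) and Dnajb1 (-0.017), and without both numbered 3 for Ddit3 (-0.054), Herpud1 (-0.071), Dnajb1 (-0.23) and Hsp90aa1 (-0.044).

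Leaving out 1 array at a time gave ranges across 0 for Canx (-0.076 to 0.027), P4hb (-0.092 to 0.136), Dnajb9 (-0.00018 to 0.064), Dnajb11 (-0.152 to 0.0096), Dnajc3 (-0.095 to 0.021), Atf6 (-0.078 to 0.072), Ern1 (-0.024 to 0.20), Ddit3 (-0.029 to 0.176), Herpud1 (-0.062 to 0.101), Edem1 (-0.062 to 0.133), Syvn1 (-0.127 to 0.028), Hsph1 (-0.418 to 0.0053), Dnajb1 (-0.23 to 0.37), Hsp90aa1 (-0.121 to 0.154), Hspd1 (-0.283 to 0.038) and Hspe1 (-0.298 to 0.036). The mean of the mitochondrial chaperonin pair ran from -0.29 without DKO 1 to 0.023 without ApoE-KO 1. The mean of the sensors turned to 0.0025 without ApoE-KO 2, and that of ER-associated degradation to -0.0105 without ApoE-KO 3. The cause of these shifts was not tested, and leaving out 1 array breaks a pair. Of the ER folding genes, Sdf2l1, Hyou1, Pdia6, Hspa5, Creld2, Hsp90b1, Calr, Manf, Pdia4 and Pdia3 stayed lower in DKO when any 1 array was left out.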

Other observations

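Exact promoter motifs were also counted in measured genes outside the 37, beside the genes of the set that hold them. For the ERSE, 5 of 13 other genes were lower in DKO (median 0.02, pair medians -0.04, -0.01 and 0.02), and 8 of 8 of the set (median -0.23). Of these 8, Canx, Dnajc3 and Syvn1 turned sign when some 1 array was left out. For the ERSE-II, 3 of 7 others were lower (median 0.04) and 1 of 2 of the set. For the CARE, 66 of 125 others were lower (median -0.01) and 1 of 2 of the set. For the heat shock element, 38 of 85 others were lower (median 0.01) and 3 of 3 of the set (median -0.12), Hspd1, Hspe1 and Hsph1. Each of these 3 turned sign when some 1 array was left out. Hspd1 and Hspe1 share their matches, and another probe set of Hspd1 gave 0.12. For the core of the UPR element, 71 of 143 others were lower (median 0.00), with 0 genes of the set. These are descriptions, and no difference between them was tested.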
